A study of Bos taurus with 12 samples.

Results

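The transcripts described here are those of COL1A1, COL1A2 and COL3A1, 3 fibrillar collagen genes, in bovine fetal fibroblasts and in cattle embryos at the 8-cell stage. They were picked by Ensembl gene ID, and all 3 IDs were present among the 22445 loci of the authors' table: ENSBTAG00000013103.5 for COL1A1, ENSBTAG00000013472.5 for COL1A2 and ENSBTAG00000021466.5 for COL3A1. RNA was sequenced from Holstein cattle in 4 groups of 3 libraries each. One group was cultured fetal fibroblasts. The others were pools of 8 embryos made by in vitro fertilisation (IVF), by cloning through somatic cell nuclear transfer (SCNT), that is, by moving a body cell's nucleus into an enucleated egg, or by SCNT with overexpression of KDM5B, a histone H3 lysine 4 demethylase. The labels do not state whether the fibroblasts that were sequenced supplied the transferred nuclei, nor how many donor cultures were used, and they give no age for any group. Every value is the authors' mean for a group in FPKM (a fragment count corrected for transcript length and for the library's total), so no SD or test could be given and read depth is unknown.

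Fibrillar collagens are secreted proteins whose chains wind into triple helices and then pack into the fibrils of skin, tendon, bone and other connective tissues. COL1A1 and COL1A2 encode the alpha 1 and alpha 2 chains of type I collagen, which assembles mostly as a mixed trimer with more alpha 1 than alpha 2 chains. COL3A1 encodes the single chain of type III collagen, abundant in fetal skin and vessel walls, and fibroblasts are a main source of both types. Cattle embryos start major transcription of their own genome at about the 8-cell stage, well before they form connective tissue. The genes are not neighbours: in the RefSeq gene table of assembly ARS-UCD2.0 they lie on 3 chromosomes, with COL3A1 next to COL5A2, the gene of another fibrillar collagen chain.

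The collagens were among the most abundant transcripts of fibroblasts and stood at 2.30 FPKM or less in every embryo group. COL1A1, the alpha 1 chain of type I collagen, stood at 6281 FPKM in fibroblasts and 1.23 in IVF embryos, with 2.30 in SCNT embryos and 1.74 in clones with KDM5B. COL1A2, its partner chain, stood at 3132 FPKM in fibroblasts and 0.563 in IVF embryos, with 1.01 in SCNT embryos and 0.11 with KDM5B. COL3A1 stood at 4287 FPKM in fibroblasts and 0.0867 in IVF embryos, with 0.813 in SCNT embryos and 0.113 with KDM5B. COL1A1 was thus above 1 FPKM in every embryo group, COL1A2 in SCNT embryos alone and COL3A1 in none. Within embryos each of the 3 genes had its highest mean in SCNT embryos. The lowest mean was in IVF embryos for COL1A1 and COL3A1 and in SCNT embryos with KDM5B for COL1A2. The spread of these means over libraries is unknown, so neighbouring embryo groups in this order cannot be told apart beyond replicate error.

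**Figure D1:**
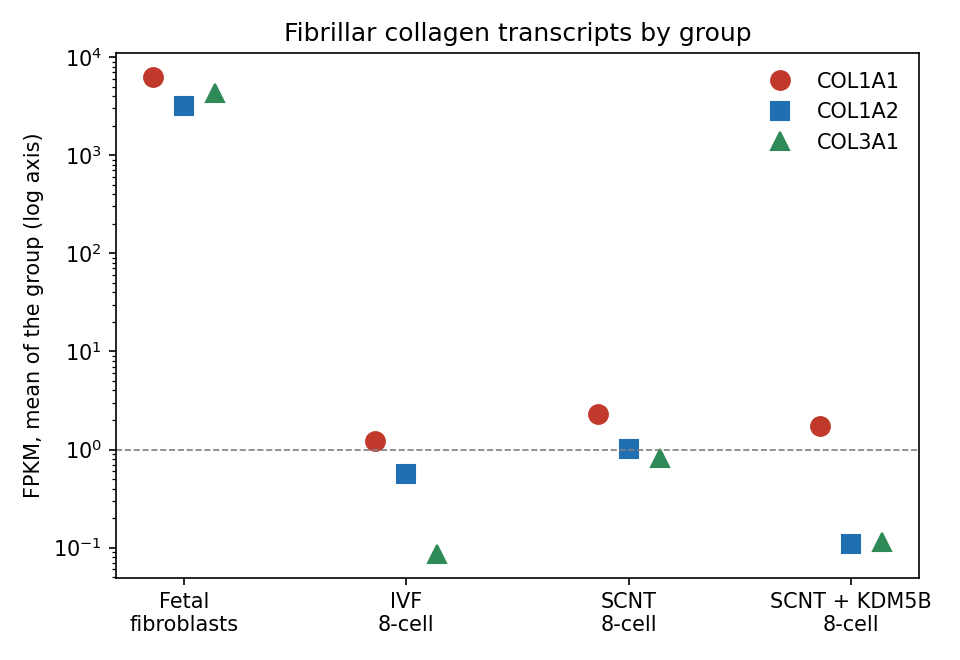
FPKM (vertical log axis) of COL1A1, COL1A2 and COL3A1 in the 4 groups; each point is the authors' mean of 3 libraries, without an error bar because single libraries were not given, and the dashed line marks 1 FPKM. The fibroblast means lie between 3132 and 6281 FPKM and the embryo means between 0.0867 and 2.30 FPKM.

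The ranks of the genes followed the same division. In fibroblasts COL1A1 was the third, COL3A1 the fifth and COL1A2 the thirteenth most abundant of the 22445 loci, and together the 3 genes made up 2.59% of all FPKM in the column. In IVF embryos COL1A1 ranked 11861, COL1A2 ranked 14351 and COL3A1 ranked 17773. In SCNT embryos the ranks were 8731 for COL1A1, 11229 for COL1A2 and 11909 for COL3A1, so the 3 genes lay in the middle of the list. With KDM5B they were 10313 for COL1A1, 17328 for COL1A2 and 17264 for COL3A1. Loci above 0 numbered 17925 for fibroblasts, 19723 for IVF, 19015 for SCNT and 20294 with KDM5B, so the lowest of these ranks were still those of listed transcripts.

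Although single libraries were not given, the means limit what any of them could hold. FPKM cannot be negative, so no library can exceed the sum over the 3 libraries of its group, which is the mean times 3. For COL1A1 that sum was 6.91 FPKM in SCNT embryos, 5.21 with KDM5B and 3.69 in IVF embryos. Every embryo library was therefore at least 909-fold below the fibroblast mean of COL1A1. For COL1A2 the largest sum was 3.02 FPKM, in SCNT embryos, which put every embryo library at least 1037-fold below the fibroblast mean. For COL3A1 the largest sum was 2.44 FPKM, again in SCNT embryos, a distance of at least 1757-fold. The same limit does not order the embryo groups: the SCNT sum of 2.44 FPKM for COL3A1, against 0.26 in IVF embryos and 0.34 with KDM5B, could stem from all 3 SCNT libraries or from 1.

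The comparison of fibroblasts with IVF embryos showed how far the genes separate a connective tissue cell from a fertilised embryo. On the log2(FPKM + 1) scale, which shrinks differences of low genes, fibroblasts were higher by 11.46 for COL1A1, 10.97 for COL1A2 and 11.95 for COL3A1. All 3 genes passed the limit of 1 FPKM in a compared group and all 3 were at least 2-fold higher in fibroblasts, as were 35.6% of the 15634 loci compared. The median over those loci was -0.31. COL1A2 and COL3A1, under 1 FPKM in IVF embryos, entered the compared loci only through their fibroblast means. No conclusion about the collagens is therefore drawn from the 35.6%. Per the series' design text the fibroblasts were read on a BGISEQ instrument and the embryos on a HiSeq, whereas the protocol text names a HiSeq throughout. Per the labels' protocols, embryo cDNA was also amplified before libraries were made. Instrument and preparation therefore cannot be told apart from cell type here, and in such bulk samples fewer cells expressing a gene and less RNA per cell cannot be told apart either.

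In cloned embryos each collagen stood at 0.0367% or less of its fibroblast FPKM. FPKM is relative to a library's total, so such a share is not an amount of transcript kept. Instrument and preparation cannot be told apart from cell type in these shares either. For COL1A1 the share of the fibroblast FPKM was 0.0367% in SCNT embryos and 0.0276% with KDM5B, beside 0.0196% in IVF embryos, which contain no fibroblast nucleus. For COL1A2 it was 0.0321% in SCNT embryos and 0.00351% with KDM5B, beside 0.0180% in IVF embryos. For COL3A1 it was 0.0190% in SCNT embryos and 0.00264% with KDM5B, beside 0.00202% in IVF embryos. As ratios, the fibroblast level was 2727 times the SCNT level for COL1A1, 3111 times for COL1A2 and 5271 times for COL3A1. All 3 genes were at least 2-fold lower in SCNT embryos than in fibroblasts, as were 38.6% of the 14703 loci compared. They were also at least 2-fold lower with KDM5B, as were 34.9% of 15136. COL3A1 in both comparisons, and COL1A2 in the one with KDM5B, passed the limit of 1 FPKM only through the fibroblast mean. No conclusion is therefore drawn from these percents of loci. The shares of the fibroblast level depend on how the columns are scaled. With every column rescaled to the same sum (TPM), the SCNT shares were 0.0219% for COL1A1, 0.0192% for COL1A2 and 0.0113% for COL3A1.

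Loci abundant in fibroblasts differed widely in how much of that level was found in clones, and the collagens were among those with the least. At least 1000 FPKM in fibroblasts was reached by 87 loci, the collagens included. Their median share in SCNT embryos was 39.4%, with quartiles of 0.595% and 101%. Of these 87 loci, 56 stood at 10% or more of the fibroblast level in SCNT embryos and 13 under 0.1%. At 100% or more stood 22. Counted from the smallest share, COL3A1 was in place 8, COL1A2 in place 10 and COL1A1 in place 11. In IVF embryos the median share was 5.70%, and COL3A1, COL1A2 and COL1A1 took places 7, 10 and 12. With KDM5B the median was 44.3% and the places were 4 for COL3A1, 6 for COL1A2 and 10 for COL1A1. The collagens therefore sat at the low end in fertilised and cloned embryos alike. Most of the 87 loci were less abundant in fibroblasts than the collagens. The 10 other loci at or above the COL1A2 level of 3132 FPKM, a set chosen after seeing the data, had a median SCNT share of 6.57%. Of them 5 stood at 10% or more and 5 under 1%, of which 2 were below the share of COL1A1. With 770 loci of at least 100 FPKM in fibroblasts, 8.83% had a smaller SCNT share than COL1A1, 7.79% than COL1A2 and 6.23% than COL3A1.

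**Figure D2:**
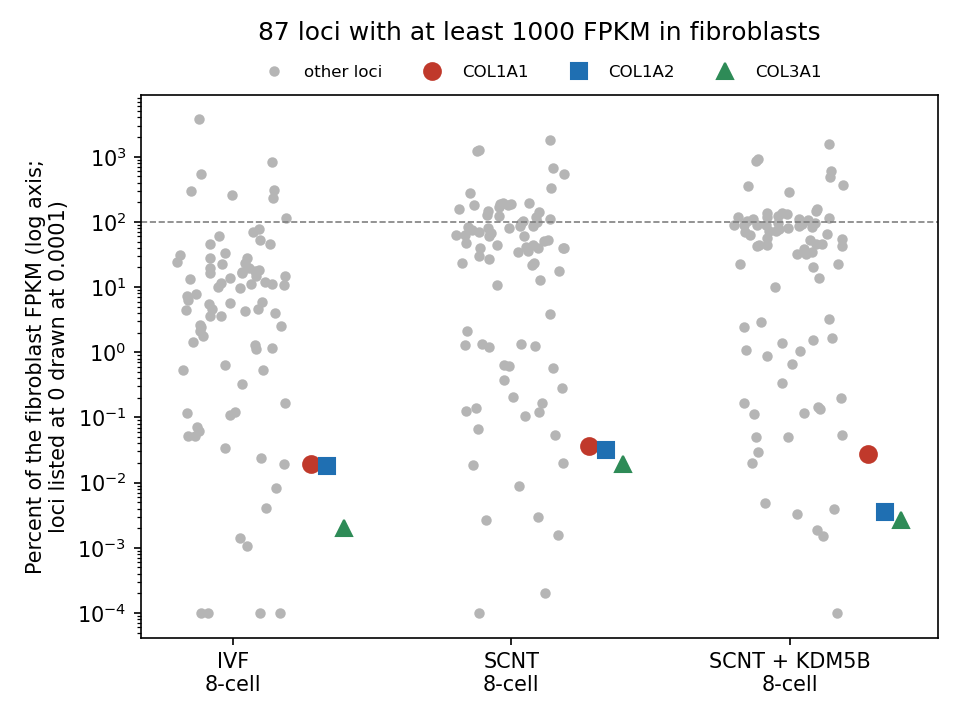
Share of the fibroblast FPKM found in each embryo group (vertical log axis, percent) for the 87 loci with at least 1000 FPKM in fibroblasts; grey points are other loci, spread sideways for legibility, coloured symbols are the collagens, loci listed at 0 are drawn at 0.0001 and the dashed line marks 100%. The collagens lie between 0.00202% and 0.0367% in the 3 embryo groups, while the median locus lies at 5.70% in IVF, 39.4% in SCNT and 44.3% in SCNT with KDM5B.

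The SCNT embryos were next compared with IVF embryos, which contain no fibroblast nucleus. Whether donor transcripts remained after cloning was not tested. Each collagen had a higher mean in SCNT embryos. So did 71 (81.6%) of the 87 loci with at least 1000 FPKM in fibroblasts, the collagens included, while 15 had a lower one. That count was made after seeing the data. The ratio of SCNT to IVF FPKM was 1.87 for COL1A1, 1.79 for COL1A2 and 9.38 for COL3A1, and the differences on the log2(FPKM + 1) scale were 0.57, 0.36 and 0.74. COL1A1 and COL1A2 passed the limit of 1 FPKM in either group, COL1A2 only through its SCNT mean of 1.01 FPKM. COL3A1 did not pass. Neither COL1A1 nor COL1A2 was 2-fold apart on this scale. Of the 14332 loci that passed, 24.1% were higher and 38.0% lower, with a median of -0.52. COL3A1, under 1 FPKM in both groups, could not reach 2-fold on this scale, so no call was possible for it. The 2-fold call depended on the scale for such low values. COL3A1 was higher by 2.29 with a pseudocount of 0.1 in place of 1. At that pseudocount 27.8% of the same loci, which do not include COL3A1, were at least 2-fold higher. COL1A1 was higher by 1.08 after quantile normalization, where 28.2% were at least 2-fold higher.

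In absolute terms SCNT embryos exceeded IVF embryos by 1.07 FPKM for COL1A1, 0.443 FPKM for COL1A2 and 0.727 FPKM for COL3A1. Set against the fibroblast level, these excesses were 0.0171% for COL1A1, 0.0142% for COL1A2 and 0.0170% for COL3A1. As TPM they were 0.00854%, 0.00692% and 0.00995% in the same order, an alternative chosen after seeing the data. Of the 87 loci abundant in fibroblasts, 15 were lower in SCNT than in IVF embryos, 8 had a smaller excess than the collagens and 61 a larger one. The median excess of the 87 loci was 15.3% of the fibroblast level. With KDM5B the excess over IVF was 0.00807% for COL1A1 and 0.000622% for COL3A1. For COL1A2 it was -0.0145%, a difference from the IVF mean of -0.453 FPKM. No replicate error is known for any of these differences.

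**Figure D3:**
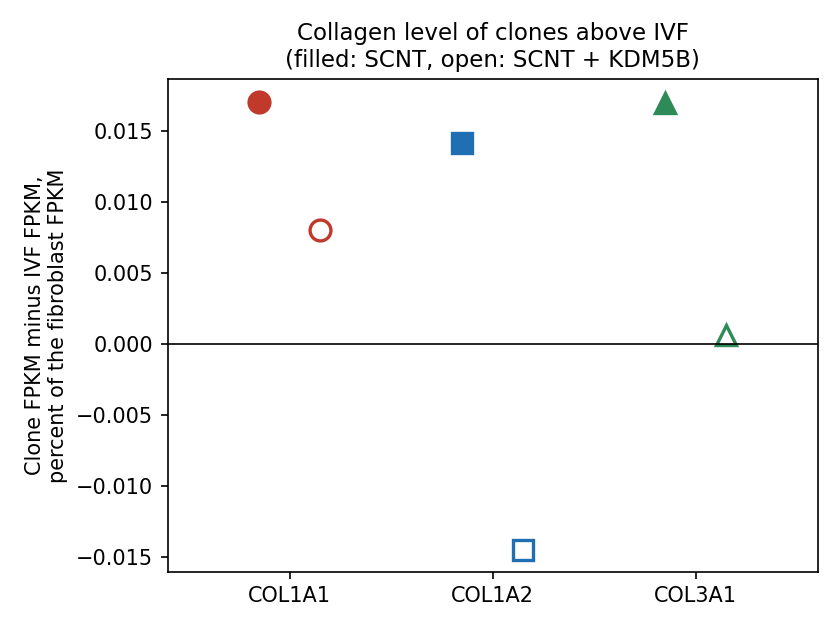
Clone FPKM minus IVF FPKM as a percent of the fibroblast FPKM (vertical axis) for each collagen; filled symbols are SCNT embryos, open symbols SCNT embryos with KDM5B, each from group means without error bars. The filled symbols lie between 0.0142% and 0.0171% and the open ones between -0.0145% and 0.00807%.

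The effect of KDM5B overexpression was examined by comparing both groups of clones. All 3 collagens had lower means with KDM5B, but by unequal amounts. A lower mean was also found for 46 (52.9%) of the 87 loci with at least 1000 FPKM in fibroblasts, the collagens included. That count was made after seeing the data. COL1A1 with KDM5B stood at 0.754 of its SCNT level, a log2(FPKM + 1) difference of -0.27. COL1A2 stood at 0.109 of its SCNT level and COL3A1 at 0.139, with differences of -0.85 and -0.70. COL1A1 and COL1A2 passed the limit of 1 FPKM in either group, COL1A2 only through its SCNT mean of 1.01 FPKM, and COL3A1 did not. Of the 12607 loci that passed, 2.13% were lower and 7.61% higher. Their median was 0.21, so the median locus compared stood higher with KDM5B. COL1A1 was not 2-fold apart on this scale. COL1A2 was not either, but from 1.01 FPKM it could only just reach 2-fold by falling to 0. COL3A1, under 1 FPKM in both groups, could not reach it. With a pseudocount of 0.1 the differences were -2.40 for COL1A2 and -2.10 for COL3A1, past 2-fold. At that pseudocount 4.18% of the same loci, which do not include COL3A1, were lower and 15.2% higher. COL1A2 also passed 2-fold with columns centred on their medians, at -1.06, where 4.04% of loci were lower and 4.03% higher. After quantile normalization COL1A2 was at -1.08, where 3.89% were lower and 4.55% higher. Because COL1A2 was among these loci only through its higher, SCNT mean, no conclusion is drawn from these percents. This comparison shares the SCNT column with the one against IVF, so a high SCNT mean enters both with opposite sign. KDM5B itself could not be matched to an ID and was not analysed here.

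SCNT embryos with KDM5B were also set beside IVF embryos directly. COL1A1 stood at 1.41 times and COL3A1 at 1.31 times the IVF level, with log2(FPKM + 1) differences of 0.30 and 0.03. COL1A2 stood at 0.195 of the IVF level, a difference of -0.49, and at -1.66 with a pseudocount of 0.1. At that pseudocount 39.6% of the loci that passed the limit of 1 FPKM, a set without COL1A2, were at least 2-fold lower. Of the 3 genes, COL1A1 alone passed that limit. It was not 2-fold apart with a pseudocount of 1, while 26.4% of 14538 loci were higher and 31.8% lower. COL1A2 and COL3A1, under 1 FPKM in both groups, could not reach 2-fold on that scale, so no call was possible for them.

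Because FPKM is scaled to transcript length, levels of the chains were set side by side within a group. Embryo means were low, of unknown precision and from amplified cDNA. Whether the ratios differ or are alike between groups was not tested. COL1A1 exceeded its partner COL1A2 2.01-fold in fibroblasts, 2.18-fold in IVF embryos and 2.29-fold in SCNT embryos. With KDM5B the ratio was 15.8, where COL1A2 stood at 0.11 FPKM. COL3A1 stood at 0.683 of the COL1A1 level in fibroblasts and 0.0705 in IVF embryos, with 0.353 in SCNT embryos and 0.0653 with KDM5B. COL1A1 was the highest of the 3 in each group, whereas COL3A1 exceeded COL1A2 1.37-fold in fibroblasts and was below it in IVF embryos, at 0.154 of its level, and in SCNT embryos, at 0.808. With KDM5B their means, 0.113 and 0.11 FPKM, were within 0.01 FPKM, the step in which the library values were rounded.

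Likeness of level over the groups was measured as the Euclidean distance between loci over log2(FPKM + 1) in the 4 groups. Values were not centred per locus, so abundance enters the distance as well as pattern. COL3A1 and COL1A2 were each other's nearest locus among 22444, at a distance of 0.71. From COL1A1, COL1A2 was in place 5 at 1.87 and COL3A1 in place 6 at 1.95. In the other direction COL1A1 was in place 10 from COL1A2 and in place 9 from COL3A1. Outside the collagens, the loci nearest to the mean of the 3 were ENSBTAG00000002006.5 and ENSBTAG00000018463.3, which were not paired with names. ENSBTAG00000002006.5 stood at 2812 FPKM in fibroblasts and 1.46 in IVF embryos, with 0.517 in SCNT embryos and 0.567 with KDM5B, at a distance of 1.10. ENSBTAG00000018463.3 stood at 2736, 1.68, 1.80 and 1.36 FPKM in the same order, at a distance of 1.26. The first differs from the collagens in having a lower mean in SCNT than in IVF embryos.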

How the data were processed

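RNA sequencing covered 12 libraries. The authors deposited 1 table of FPKM with 1 column per group; that these are means of 3 libraries was read from the values, which are multiples of 0.01 divided by 3 (100% in fibroblasts, over 99.99% in each embryo column). Per the submitters' processing notes, the tools were bcl2fastq 2.16, HISAT 0.1.6, StringTie 1.0.4, Bowtie2 2.2.5 and RSEM 1.2.12 with genome build UMD3.1; the step each served, the annotation and any filters were not given in the sources used here. Groups were taken from sample titles, since another label of the fibroblasts names SCNT embryos.

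Ranks, shares of the fibroblast level, ratios and differences of log2(FPKM + 1) were computed from the means with Python 3.11.15, numpy 2.4.6 and pandas 2.3.3, figures with matplotlib 3.10.9. Loci compared had at least 1 FPKM in either group, and 2-fold was the size limit. The code was tested on copies of the real IVF column with known changes planted, none at loci as low as the collagens in embryos. The 3 genes and all lists were chosen with earlier results of these data known. Besides them, the rule named the 2 loci nearest in level over the 4 groups. Planned lists of 65 collagen pathway genes and 27 cell type markers were not analysed here, as the gene table used (ARS-UCD2.0, 37063 entries) has 0 Ensembl IDs; the collagen symbols come with the IDs of the selection rule. No coordinates or sequences are given, the builds being different. Alternatives were pseudocounts of 0.1 and 5, TPM (columns rescaled to a common sum), quantile normalization, centring of each column on its median log2 deviation from the gene means, subtraction of the IVF level and other sets of loci; those added after seeing the data are named as such.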

Additional observations from a re-analysis of the deposited data

How the results depend on the processing

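The 12 log2 differences of the collagens in the comparisons with IVF and between clones kept their sign under the 5 alternatives run, and 7 of those 60 values crossed the 2-fold limit, each named with its comparison above. No replicate spread is known, so a collagen value is listed here where it moved by over 1.5 times. Fibroblasts minus IVF for COL1A1, COL1A2 and COL3A1 was 12.21, 12.21 and 14.49 at a pseudocount of 0.1, 9.98, 9.14 and 9.72 at 5, 12.16, 11.74 and 12.83 as TPM, and 12.72, 11.95 and 13.31 after quantile normalization. At a pseudocount of 0.1, which widens differences of low genes, SCNT minus IVF was 2.29 for COL3A1, KDM5B minus SCNT was -2.40 for COL1A2 and -2.10 for COL3A1, and KDM5B minus IVF was -1.66 for COL1A2; at 5, KDM5B minus SCNT was -0.23 for COL1A2. As TPM, shares of the fibroblast level for COL1A1, COL1A2 and COL3A1 were 0.0219%, 0.0192% and 0.0113% in SCNT and 0.0165%, 0.00209% and 0.00157% with KDM5B. With the IVF level subtracted, they were 0.0171% for COL1A1 and 0.0142% for COL1A2 in SCNT, and 0.00807% for COL1A1, -0.0145% for COL1A2 and 0.000622% for COL3A1 with KDM5B, where COL1A2 turned negative. The excess over IVF as TPM was 0.00854%, 0.00692% and 0.00995% in SCNT, and 0.00311% for COL1A1 and 0.000195% for COL3A1 with KDM5B. The percent of abundant fibroblast loci with a smaller SCNT share than each collagen moved by under 1.5 times with other sets of loci. With 770 in place of 87 loci it moved from 12.6% to 8.31% for COL1A1 in IVF and from 5.75% to 3.77% for COL1A2 with KDM5B. The percent of loci 2-fold apart also moved: at a pseudocount of 5 from 76.5% to 49.9% for fibroblasts against IVF, 62.1% to 33.7% for SCNT against IVF, 58.3% to 31.7% for KDM5B against IVF and 9.73% to 2.70% for KDM5B against SCNT, the last being 19.4% at 0.1. Without the filter, so over more low loci, it was 39.6% for SCNT against IVF, 37.7% for KDM5B against IVF and 5.47% for KDM5B against SCNT. Depth is unknown, so the precision of embryo values near 0.1 FPKM cannot be stated. No paired analysis was possible because each column averages its 3 libraries, and fits without single replicates were not run for the same reason.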

Other observations

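Loci with embryo levels like those of the collagens give a setting for the differences between embryo groups; this comparison was chosen after seeing the data and has no replicate check. Of 5966 loci whose IVF mean lay between 0.0867 and 1.23 FPKM, the range of the collagens, 40.0% had a higher SCNT than IVF mean, and the median ratio was 0.541. The SCNT to IVF ratio of COL3A1, 9.38, was exceeded by 9.86% of these loci, that of COL1A1 by 30.3% and that of COL1A2 by 31.0%. COL3A1 itself set the lower end of this range and COL1A1 the upper, so no single collagen was matched for level. A low IVF mean also makes a large ratio easier to reach. Of 3187 loci with an SCNT mean between 0.813 and 2.30 FPKM, 36.6% had a lower mean with KDM5B, and the median ratio of KDM5B to SCNT was 1.22. A smaller ratio than that of COL1A2, 0.109, was found for 1.51% of them, and than that of COL3A1, 0.139, for 2.01%. For COL1A1, at 0.754, it was 22.0%. In this range too COL3A1 set the lower end and COL1A1 the upper. These loci were picked by their SCNT mean, and SCNT was the embryo group where each collagen was highest. That choice favours a low ratio for the collagens, so no conclusion is drawn from these percents.

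The sequence of a higher mean in SCNT than in IVF embryos and a lower one with KDM5B than in SCNT, seen in all 3 collagens, was shared by 43 of the 87 loci with at least 1000 FPKM in fibroblasts. Among the 19 of these under 2 FPKM in IVF embryos, the 3 collagens included, 12 had it. Among 211 loci with at least 100 FPKM in fibroblasts and under 2 in IVF embryos it was 58, or 27.5%. This sequence and these sets were chosen after seeing the data, and each set contains the collagens. Each count uses the SCNT column in both steps.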
